A study of Mus musculus with 6 samples.

Results

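Erythroid and globin genes were followed across cells sorted from the marrow of CBL and RUNX1 mutant mice, which model myelodysplastic syndrome. The 9 genes were chosen by name and read from a deposited table of 28987 genes, in which all 9 were found: the alpha globin genes Hba-a1 and Hba-a2, the beta globin genes Hbb-bs and Hbb-bt, Alas2, Klf1, Car1, Car2 and Aqp1. There were 6 libraries in 4 groups, all from bone marrow of C57BL/6 mice and all from the mutant clone. Ly6G+ myeloid cells gave 2 libraries from mice given Mdivi-1 and 2 from mice given vehicle, and HSCPs, stem and progenitor cells selected through the surface receptor CD117, gave 1 library from each treatment. The compound Mdivi-1 is known as a blocker of mitochondrial division, reported to act on the GTPase Drp1. The alleles, how the mutations were introduced, the age of the mice and the dose of Mdivi-1 are not stated by the labels, and no group without the mutations was analysed here. Marrow was taken from individual mice, but no label ties a library to a mouse, so p-values here cover only library-to-library spread, which may be technical.

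Hemoglobin is a tetramer of alpha and beta globin chains, each holding a heme group, and it is made in red cell precursors of the marrow. Heme synthesis in those cells starts with the erythroid enzyme Alas2, and the transcription factor Klf1 binds CACCC motifs and activates adult beta globin and many other red cell genes. The carbonic anhydrases Car1 and Car2 interconvert carbon dioxide and bicarbonate, and Aqp1 is a water channel of the red cell membrane. Ly6G is a surface protein of maturing neutrophils, whereas CD117 is carried by progenitors of several blood lineages, red cell progenitors among them.

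All positions are on GRCm38, the assembly also called mm10, with gene models from GENCODE M21, and all 9 genes are protein coding. Hba-a1 (chr11:32283511-32284465, plus strand) and Hba-a2 (chr11:32296489-32297298, plus strand) lie 12023 bases apart. Hbb-bs (chr7:103826534-103828096) and Hbb-bt (chr7:103812524-103813996) are both on the minus strand, 12537 bases apart. Car1 (chr3:14766216-14808368, minus strand) and Car2 (chr3:14886273-14900770, plus strand) are 77904 bases apart. Alas2 lies at chrX:150547375-150570638, Klf1 at chr8:84901928-84905291 and Aqp1 at chr6:55336432-55348555, all on the plus strand.

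Several of these genes share sequence, which matters because reads that fit more than 1 gene have to be divided between them. Of all stretches of 31 bases in the gene's transcripts, the share found in no other gene was 24.5% for Hba-a1 and 7.4% for Hba-a2, which share sequence with each other. It was 45.6% for Hbb-bs and 40.6% for Hbb-bt, which likewise share sequence, 79.9% for Car1 and 100% for Klf1, Car2 and Aqp1. The split between Hba-a1 and Hba-a2, and to a lesser degree that between Hbb-bs and Hbb-bt, is therefore uncertain, and their sums are less so. Alas2 had 86.9% and overlaps Apex2 on the opposite strand. Strand is not given in the sources used here, so reads of Alas2 and Apex2 in the overlap cannot be told apart.

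Promoters of 6 of these genes are shown, with CACCC among the marked motifs because Klf1 binds it. Whether Klf1 had a part in the levels reported below was not tested. The promoter set used, with RefSeq starts (GRCm38.p6), held 7 of the 9 genes, all but Car1 and Car2. Each window is the 150 bases before that start, 5′ to 3′ on the gene's strand. RefSeq and GENCODE starts differ: the Hbb-bs window lies within the gene span given above, and the Aqp1 window ends some way before its span. Capitals mark 4 motifs on either strand: the CACCC motif (GGGTG when on the other strand), the GATAA motif (TTATC on the other strand), the CCAAT motif (ATTGG on the other strand) and the TATAA motif (TTATA on the other strand). No marked motifs overlap. The windows are chr11:32296342-32296491 for Hba-a2, chr7:103827929-103828078 for Hbb-bs, chr7:103813924-103814073 for Hbb-bt, chrX:150547267-150547416 for Alas2, chr8:84901832-84901981 for Klf1 and chr6:55336149-55336298 for Aqp1.
Hba-a2: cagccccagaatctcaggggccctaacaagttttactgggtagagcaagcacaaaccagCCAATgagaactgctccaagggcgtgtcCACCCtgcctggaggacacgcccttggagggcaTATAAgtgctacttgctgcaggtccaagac
Hbb-bs: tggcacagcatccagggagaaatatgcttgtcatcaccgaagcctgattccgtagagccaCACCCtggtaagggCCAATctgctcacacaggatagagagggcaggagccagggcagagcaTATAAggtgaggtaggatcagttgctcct
Hbb-bt: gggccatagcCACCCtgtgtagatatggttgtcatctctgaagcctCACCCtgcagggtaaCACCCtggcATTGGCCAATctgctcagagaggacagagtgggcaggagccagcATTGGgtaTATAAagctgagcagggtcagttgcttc
Alas2: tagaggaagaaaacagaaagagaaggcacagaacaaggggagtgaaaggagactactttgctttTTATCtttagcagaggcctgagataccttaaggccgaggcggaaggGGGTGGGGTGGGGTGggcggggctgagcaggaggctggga
Klf1: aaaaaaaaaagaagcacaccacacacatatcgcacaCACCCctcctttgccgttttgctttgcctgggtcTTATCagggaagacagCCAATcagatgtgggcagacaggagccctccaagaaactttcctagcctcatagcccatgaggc
Aqp1: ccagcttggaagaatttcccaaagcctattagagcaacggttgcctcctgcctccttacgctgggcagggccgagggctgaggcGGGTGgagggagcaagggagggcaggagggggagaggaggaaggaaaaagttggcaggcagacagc

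CACCC was present in 7 of the 7 windows, Hba-a1 included, against 37.4% of all 32851 promoter windows of that length. CCAAT was in 5 of 7, the 4 globin genes and Klf1, against 24.5% of all windows. TATAA was in the windows of the 4 globin genes, against 14.2% of all windows. GATAA was in Alas2 and Klf1, against 13.3% of all windows. The Hba-a1 window matched that of Hba-a2 at 147 of 147 bases when shifted by 3, and the windows of Hbb-bs and Hbb-bt matched at 71.1% of 149 bases. These are matches of letters and do not show binding.

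The deposited values are TPM, a share of all transcripts corrected for transcript length, so levels can be compared between genes. Each library summed to between 963243.1 and 979168.3 TPM, and no read totals were given, so depth is unknown. The sorts could be checked on the genes of their markers. Kit, the gene of CD117, was lower in Ly6G+ cells than in HSCPs, with a log2 difference of -2.59 (limma, adjusted p = 1.51e-05), and Ly6g was higher (2.56, limma adjusted p = 9.05e-05). Dnm1l, the gene of Drp1, had 23.0 and 24.6 TPM in Ly6G+ cells given Mdivi-1 and 24.3 and 23.1 TPM in those given vehicle, a log2 difference of 0.00 (limma, adjusted p = 0.975). Of 13 listed erythroid markers 12 were matched, and all 12 had at least 1 TPM in every library. In bulk samples of this kind, fewer cells of a type and less RNA per cell cannot be told apart.

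For each of the 9 genes the fitted log2 difference between the cell populations was larger in size than that between the treatments in Ly6G+ cells. By group means of TPM, all 9 were lowest in Ly6G+ cells given Mdivi-1, next in Ly6G+ cells given vehicle, and highest in HSCPs. For 7 of the 9, Hba-a1, Hba-a2, Hbb-bs, Hbb-bt, Klf1, Car2 and Aqp1, no libraries overlapped between these steps, a pattern that 20.3% of the 12338 genes tested over all 6 libraries showed. For Alas2 and Car1 the Ly6G+ libraries of the treatments overlapped. On the log2 scale of the tests Car1 did not keep this order, with a change of 0.10 with Mdivi-1 in Ly6G+ cells. Summed over the 4 globin genes, the level was 2435 and 2472 TPM in Ly6G+ cells given Mdivi-1, 3104 and 3190 TPM in Ly6G+ cells given vehicle, 5332 TPM in HSCPs given Mdivi-1 and 5008 TPM in HSCPs given vehicle. Globin thus made up 0.249% and 0.253% of all TPM in the Ly6G+ Mdivi-1 libraries, 0.317% and 0.326% in the Ly6G+ vehicle libraries, and 0.552% and 0.52% in the HSCP Mdivi-1 and HSCP vehicle libraries. Hba-a2 ranked between 64 and 105 among all genes of a library by TPM.

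**Figure D1:**
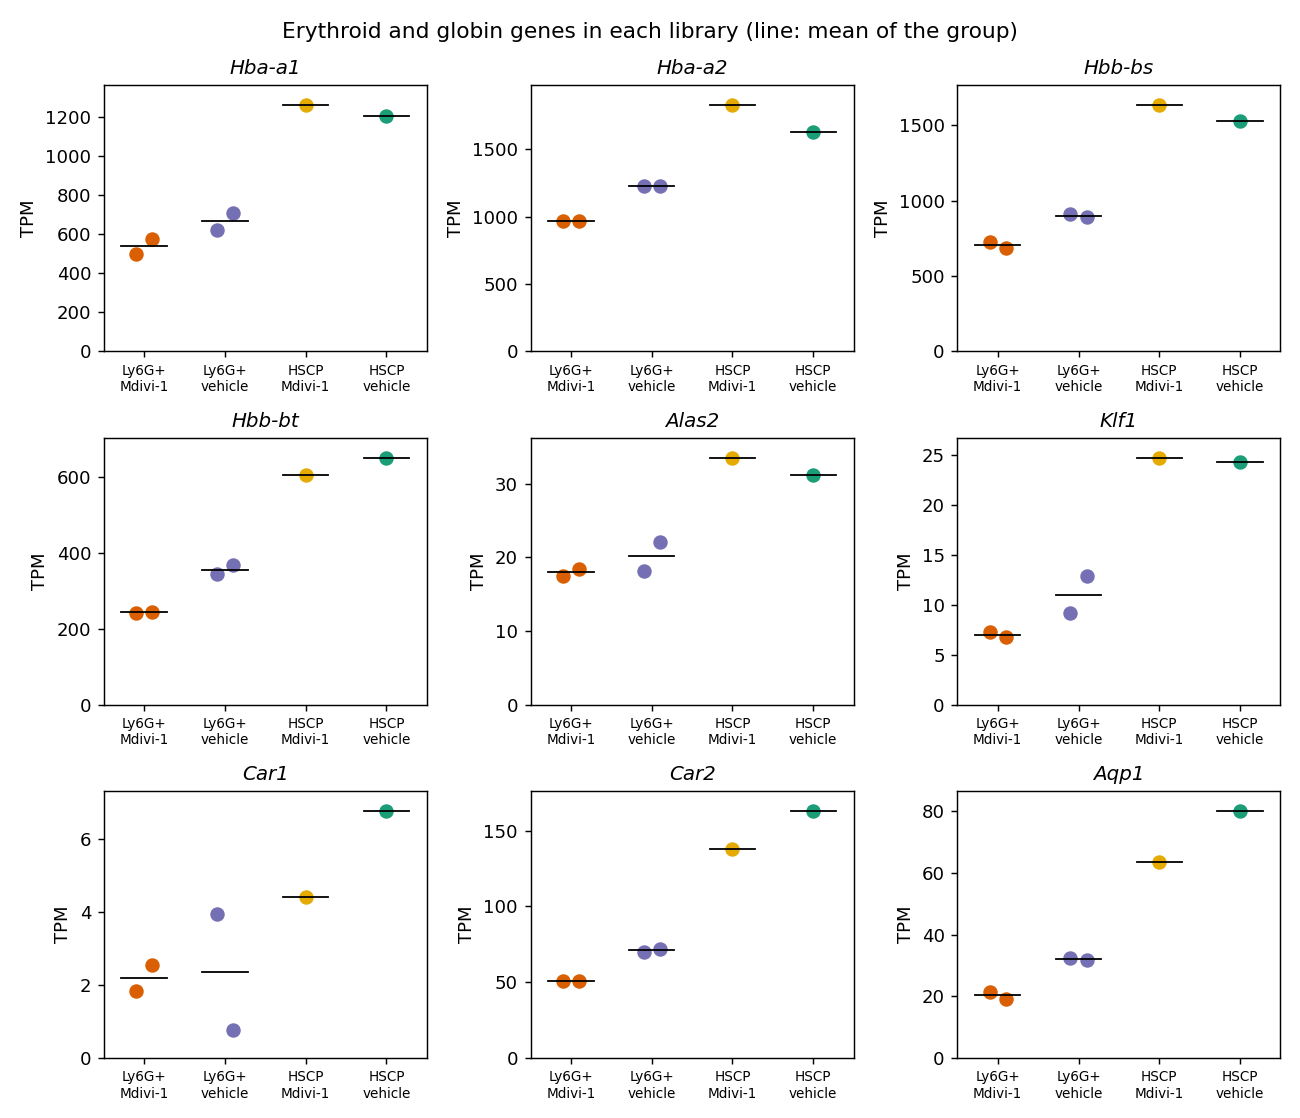
TPM of each of the 9 genes (vertical axis, starting at 0) in the 6 libraries, by group; points are libraries and lines are group means. For Hba-a2 the 2 Ly6G+ Mdivi-1 points lie near 966 TPM, below the Ly6G+ vehicle points near 1224 TPM and the HSCP points at 1829 and 1623 TPM.

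The first comparison asks what Mdivi-1 treatment did to these genes in Ly6G+ cells. Of the 9 genes, 5 fell by limma's test on log2(TPM + 1) with Benjamini-Hochberg adjustment over 11775 genes at a threshold of 0.05: Hba-a2, Hbb-bs, Hbb-bt, Car2 and Aqp1. None of the 9 rose (0 of 9). Over all genes tested, 4.24% fell and 2.46% rose. The median log2 change was -0.35 for the 9 genes and -0.05 for all genes tested. Both Mdivi-1 libraries lay below both vehicle libraries for 7 of the 9 genes, a pattern that 36.7% of all genes tested showed, and 0 of the 9 had the opposite pattern, which 21% of all genes showed.

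Hba-a2, an adult alpha globin gene, had 965.6 and 966.7 TPM in Mdivi-1 libraries, against 1225 and 1224 TPM in vehicle libraries. The groups did not overlap and the replicates of each were close together. The log2 change was -0.34 ± 0.0426 (SE, n = 2 each, limma adjusted p = 0.0208). Hba-a1, the other alpha globin gene, had 499.3 and 575.9 TPM with Mdivi-1, against 622.9 and 710.8 TPM with vehicle. The groups did not overlap, but the replicates were further apart, and a log2 change of -0.31 ± 0.0987 did not pass the test (limma adjusted p = 0.137). Because the split of reads between the alpha genes is uncertain, so is this contrast between them, and their sum was not tested.

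Hbb-bs, the more abundant of the beta globin genes, had 727.3 and 684.0 TPM in Mdivi-1 libraries, against 910.7 and 887.7 TPM in vehicle libraries. Hbb-bt had 242.8 and 245.1 TPM with Mdivi-1, against 345.2 and 367.8 TPM with vehicle. Neither gene's groups overlapped. The log2 change was -0.35 ± 0.0529 for Hbb-bs (limma adjusted p = 0.0314) and -0.54 ± 0.0548 for Hbb-bt (limma adjusted p = 0.012). The summed globin level with Mdivi-1 was 0.78 times that with vehicle, 0.795 times for the alpha genes and 0.756 times for the beta genes.

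Alas2, the erythroid form of the first enzyme of heme synthesis, had 17.5 and 18.4 TPM with Mdivi-1, against 18.2 and 22.1 TPM with vehicle. These ranges overlapped, and the log2 change of -0.15 ± 0.113 did not pass (limma adjusted p = 0.462). Of the 15 other genes of heme synthesis tested, 0 passed in either direction (5 had an unadjusted p under 0.05), with a median log2 change of -0.13. Among them Alas1, the form of the first enzyme found in most tissues, had 157.0 and 154.9 TPM with Mdivi-1, against 171.7 and 170.7 TPM with vehicle (limma adjusted p = 0.176).

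Klf1 had 7.25 and 6.77 TPM in Mdivi-1 libraries, against 9.13 and 12.8 TPM in vehicle libraries. The groups did not overlap, but the vehicle libraries were far apart, and the log2 change of -0.57 ± 0.17 did not pass (limma adjusted p = 0.123). Other genes listed as red cell transcription factors did pass: of 16 tested, 5 fell and 1 rose, with a median log2 change of -0.39. A place on this list does not make a gene specific to the red cell lineage. Whether these falls came from red cell precursors or from other cells was not tested. The largest fall was in Zfpm1, the partner protein of Gata1, with 5.4 and 4.81 TPM in Mdivi-1 libraries, against 11.4 and 12.6 TPM in vehicle libraries (log2 change -1.09, limma adjusted p = 0.0129). Bcl11a, a repressor of embryonic globin genes, changed by -0.65, and Cbfa2t3, a corepressor, by -0.64 (limma adjusted p = 0.0314 and 0.0287). Lmo2, which bridges Tal1 to its partners, also fell (-0.60, limma adjusted p = 0.0163). The remaining genes that passed, Lyl1 and Klf13, and Gata1 were named after their values were seen. Lyl1, a relative of Tal1, fell (-0.43, limma adjusted p = 0.0427). Klf13, a relative of Klf1, rose by 0.51 on the log2 scale, to 69.5 and 71.0 TPM with Mdivi-1, against 48.2 and 50.1 TPM with vehicle (limma adjusted p = 0.0178). Gata1 had 5.76 and 6.15 TPM with Mdivi-1, against 8.97 and 8.4 TPM with vehicle, and did not pass (-0.48, limma adjusted p = 0.0653).

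Car2 was the carbonic anhydrase with the steadier values. It had 50.4 and 50.6 TPM with Mdivi-1, against 70.0 and 71.7 TPM with vehicle, with no overlap and a log2 change of -0.48 ± 0.0567 (limma adjusted p = 0.018). Car1 was low, near the filter of 1 TPM, with 1.82 and 2.55 TPM in Mdivi-1 libraries, against 3.95 and 0.769 TPM in vehicle libraries. The vehicle libraries lay on either side of the Mdivi-1 libraries, and the log2 change of 0.10 had a 95% interval of -1.19 to 1.38. Of the other carbonic anhydrases 3 were tested and 0 passed (0 also had an unadjusted p under 0.05).

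Aqp1 had the largest change of the 9 genes: 21.5 and 19.1 TPM with Mdivi-1, against 32.3 and 31.6 TPM with vehicle. The groups did not overlap, and the log2 change was -0.63 ± 0.0835 (limma adjusted p = 0.0231). The other aquaporin tested, Aqp9, a channel for glycerol and water, had 56.0 and 51.9 TPM with Mdivi-1, against 44.8 and 43.7 TPM with vehicle, and did not pass (0.28, limma adjusted p = 0.0817). Among 20 other genes of the red cell membrane and its skeleton 2 fell, 1 rose and 17 did not pass. The urea transporter Slc14a1 changed by -0.71 and the anion exchanger Slc4a1, also called band 3, by -0.43 (limma adjusted p = 0.0277 and 0.0451). The glucose transporter Slc2a1 rose by 0.66, to 32.0 and 31.9 TPM with Mdivi-1, against 19.0 and 20.7 TPM with vehicle (limma adjusted p = 0.0166).

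Genes of the erythropoietin response, iron handling and globin partners gave calls in the other direction. Of 23 tested, 3 rose and 0 fell (9 had an unadjusted p under 0.05), with a median log2 change of -0.04. Fth1, the heavy chain of the iron store ferritin, had 1795 and 1803 TPM with Mdivi-1, against 1172 and 1208 TPM with vehicle (0.60, limma adjusted p = 0.00594). The iron exporter Slc40a1 rose by 0.39 and Hmox1, which breaks down heme, by 0.34 (limma adjusted p = 0.0377 and 0.038). These 3 genes are also expressed outside the red cell lineage. Ftl1, the ferritin light chain, changed by -0.04 (limma adjusted p = 0.832). Only 35.9% of the 31-base stretches of Ftl1 were found in no other gene, so its level is uncertain. Hbq1b, a theta globin gene and the only 1 of 7 matched other globins that was tested, had 2.15 and 2.02 TPM with Mdivi-1, against 2.58 and 2.69 TPM with vehicle (limma adjusted p = 0.369).

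**Figure D2:**
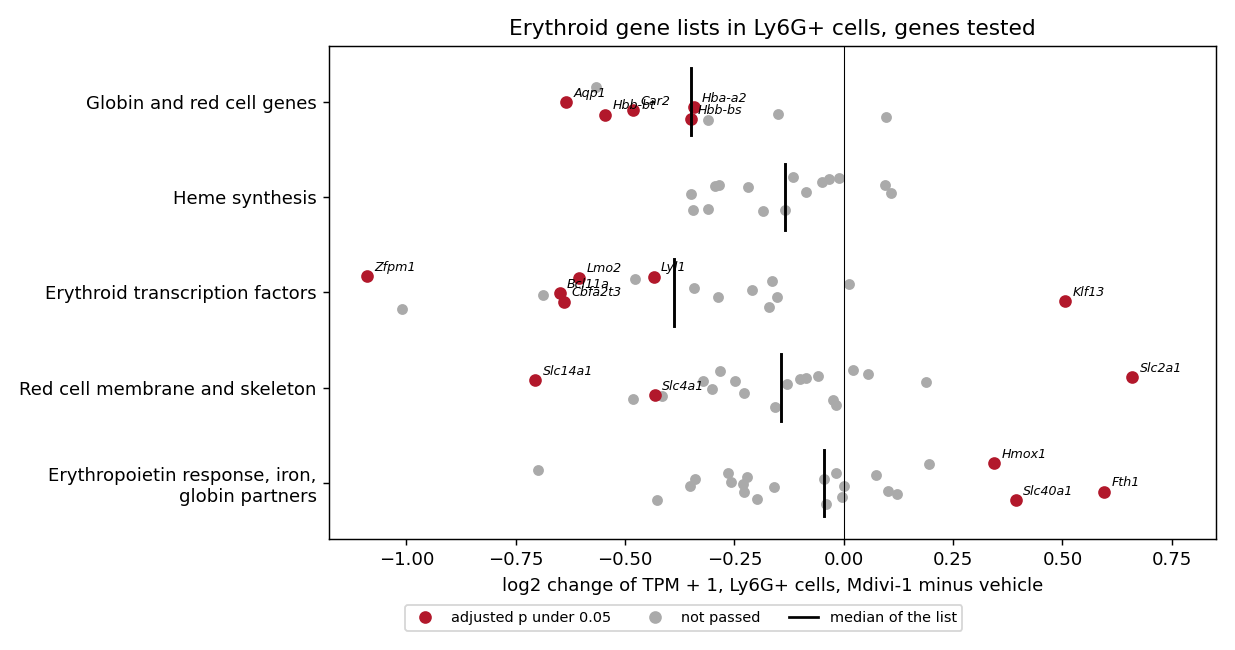
Log2 change of TPM + 1 in Ly6G+ cells, Mdivi-1 minus vehicle (horizontal axis), for each gene tested in 5 erythroid lists; red points passed limma's test at an adjusted p under 0.05, grey points did not, and bars are list medians. Red points lie left of 0 for the 9 globin and red cell genes (median -0.35), on both sides for transcription factors and membrane genes, and right of 0 for iron genes.

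Most calls in Ly6G+ cells needed all 4 libraries, over all genes as well as for the 9 and the other erythroid lists. Leaving out 1 library leaves a lone library in its group, so sizes of log2 change are given here. Hba-a2 changed by -0.34 whichever library was left out. Hba-a1 changed by -0.41 without vehicle replicate 1, -0.22 without vehicle replicate 2, -0.21 without Mdivi-1 replicate 1 and -0.41 without Mdivi-1 replicate 2. Over 10 other settings, these 4 fits among them, the change was -0.72 to -0.54 for Aqp1 and -0.50 to -0.38 for Car2. It was -0.39 to -0.25 for Hbb-bs and -0.59 to -0.45 for Hbb-bt. Car1 lay on both sides of 0, from -0.65 to 0.84. Scaling the libraries by the median of ratios moved the median of all genes from -0.05 to 0.04 and raised the share of all calls that were higher from 36.8% to 61.9%. Under it 4 of the 9 genes fell and 0 rose, against 2.73% and 4.44% of all genes, and Hbb-bs did not pass (-0.25, limma adjusted p = 0.0551).

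Markers of other cell types moved in the same libraries. Summed TPM of 15 megakaryocyte markers was 165 and 149 with Mdivi-1, against 342 and 337 with vehicle, and 12 of 15 fell. That of 10 B cell markers was 23.6 and 24.5 with Mdivi-1, against 146 and 148 with vehicle, and 9 of 10 fell. That of 12 basophil and mast cell markers was 491 and 495 with Mdivi-1, against 786 and 804 with vehicle, with 7 of 9 tested lower. That of 13 stem and progenitor markers was 162 and 163 with Mdivi-1, against 215 and 208 with vehicle, with 4 of 11 tested lower. Sums of neutrophil, eosinophil, and monocyte and macrophage markers with Mdivi-1 were 0.995, 0.958 and 1.04 times those with vehicle, with 4 of 15 neutrophil markers higher and 3 lower, 0 of 6 eosinophil markers tested called (0 also at an unadjusted p under 0.05), and 3 of 12 monocyte and macrophage markers tested higher. The monocyte and macrophage markers that were higher included Slc40a1 and Hmox1, which are also counted above among the iron genes. Among the markers of these 7 cell types only Marco was at 0 in every library. For the erythroid markers that ratio was 0.782, and 0.839 without the globin genes. The part of these cell types in the change of the 9 genes was not tested.

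The second comparison sets Ly6G+ cells against HSCPs, with treatment as a covariate over all 6 libraries. Of the 9 genes 8 were lower in Ly6G+ cells, all but Car1, and 0 were higher (all 9 had an unadjusted p under 0.05). Lower levels were common in this comparison: 50.3% of the 12338 genes tested were lower and 22.2% higher. The median log2 difference was -1.08 for the 9 genes and -0.35 for all genes. All 4 Ly6G+ libraries lay below both HSCP libraries for 9 of 9 genes, as did 52.5% of all genes tested, while 23.5% lay above. With median-of-ratios scaling 34.7% of genes were lower and 33.1% higher, the median of all genes was -0.03, that of the 9 genes was -0.72, and 8 of the 9 were still called lower.

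Aqp1 and Klf1 differed most. Aqp1 averaged 26.1 ± 6.83 TPM in Ly6G+ cells (SD, n = 4) and had 63.5 and 80.2 TPM in HSCPs, a log2 difference of -1.45 (limma adjusted p = 3.13e-05). Klf1 averaged 9.0 ± 2.76 TPM in Ly6G+ cells and had 24.7 and 24.3 TPM in HSCPs (-1.39, limma adjusted p = 0.000525). Car2 averaged 60.7 ± 11.8 TPM in Ly6G+ cells and had 137.8 and 162.9 TPM in HSCPs (-1.31, limma adjusted p = 1.91e-05). Mean TPM in Ly6G+ cells was 0.364, 0.367 and 0.404 times that in HSCPs for Aqp1, Klf1 and Car2.

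The globin genes and Alas2 differed less. Hbb-bt averaged 300.2 ± 65.6 TPM in Ly6G+ cells and had 604.7 and 651.2 TPM in HSCPs (-1.09, limma adjusted p = 0.000134). Hbb-bs averaged 802.4 ± 113 TPM in Ly6G+ cells and had 1635 and 1529 TPM in HSCPs (-0.99, limma adjusted p = 0.000205). These beta globin differences were close to each other. Hba-a1 averaged 602.2 ± 88.5 TPM in Ly6G+ cells and had 1263 and 1205 TPM in HSCPs (-1.05, limma adjusted p = 0.000234), whereas Hba-a2 averaged 1095 ± 149 TPM in Ly6G+ cells and had 1829 and 1623 TPM in HSCPs (-0.66, limma adjusted p = 0.0018). Alas2 averaged 19.1 ± 2.08 TPM in Ly6G+ cells and had 33.5 and 31.1 TPM in HSCPs (-0.74, limma adjusted p = 0.000906). Car1 averaged 2.27 ± 1.34 TPM in Ly6G+ cells and had 4.39 and 6.76 TPM in HSCPs, and did not pass (-1.08, limma adjusted p = 0.0553). It passed without vehicle replicate 1 (limma adjusted p = 0.0152) or vehicle replicate 2 (0.01) of the Ly6G+ cells.

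**Figure D3:**
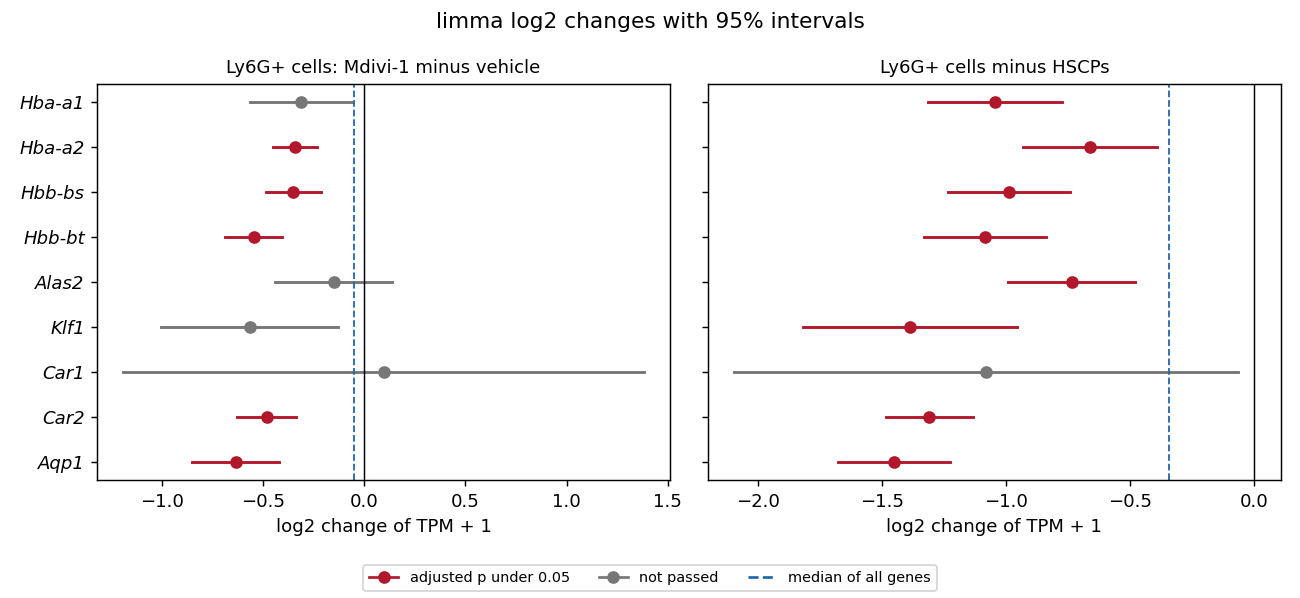
limma log2 changes of TPM + 1 (horizontal axis) with 95% intervals for the 9 genes, for Mdivi-1 minus vehicle in Ly6G+ cells (left) and Ly6G+ cells minus HSCPs (right); the dashed line is the median of all genes tested. At left 5 genes passed, between -0.63 and -0.34, and at right 8 passed, between -1.45 and -0.66.

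Over the other erythroid lists 55 of 83 genes tested were lower in Ly6G+ cells and 12 were higher, beside 50.3% and 22.2% of all genes, and 41 were lower with vehicle libraries only. Of 15 heme synthesis genes 12 were lower and 0 higher, among them Alad, which joins the first intermediates of the pathway (16.0 to 22.2 TPM in Ly6G+ cells, 63.0 and 64.2 TPM in HSCPs; -1.67). Of 16 transcription factors 11 were lower and 4 higher. Myb, a factor of immature cells, had 40.5 to 47.5 TPM in Ly6G+ cells, against 192.7 and 181.1 TPM in HSCPs (-2.05), while Klf3, a relative of Klf1 named after its values were seen, was higher (1.25). Of 20 membrane genes 13 were lower, with Icam4, a red cell adhesion protein, at -1.39. Only 5.32% of the 31-base stretches of Icam4 were found in no other gene, and it overlaps Gm47079 on the opposite strand. The level of Icam4 is therefore uncertain. Of the same 20 genes 1, Slc2a1, also named after its values were seen, was higher (0.84). Of 24 genes of the erythropoietin response and iron handling 15 were lower and 6 higher. The transferrin receptor Tfr2 had 1.12 to 3.01 TPM in Ly6G+ cells, against 10.8 and 15.4 TPM in HSCPs (-2.28), and the erythropoietin receptor Epor 2.0 to 3.86 TPM in Ly6G+ cells, against 10.2 TPM in both HSCP libraries (-1.51). Slc40a1 was higher in Ly6G+ cells (1.52). Outside the red cell lists, the tumor-associated enzyme Car9 was lower in Ly6G+ cells (-1.89) and Aqp9 was higher (2.07), the opposite direction to Aqp1. All differences named here passed limma's test, with adjusted p-values of 0.003 or less. The summed TPM of stem and progenitor markers was 162 to 215 in Ly6G+ cells, against 527 and 605 in HSCPs, and that of eosinophil markers 85.2 to 93.9 in Ly6G+ cells, against 399 and 702 in HSCPs. Summed basophil and mast cell markers were 1.56 times, and neutrophil markers 2.55 times, as high in Ly6G+ cells as in HSCPs, with 12 of 15 neutrophil markers called higher, and the HSCP libraries themselves held 104900 and 112700 TPM of neutrophil markers. The part of these cell types in the lower erythroid levels was not tested.

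The third comparison asks whether Mdivi-1 changed these genes in HSCPs and whether the change differed from that in Ly6G+ cells. With 1 HSCP library per treatment there is no test within HSCPs. Of the 9 genes, 8 had a mean of at least 10 TPM in HSCPs, and their log2 ratios of Mdivi-1 to vehicle lay between -0.33 and 0.17, with a median of 0.05. None reached a size of 1 (0 of 8), which 0.538% of the 7987 genes at that level did downward and 0.388% upward. In HSCPs Hba-a2 had 1829 TPM with Mdivi-1 and 1623 TPM with vehicle, Hbb-bs 1635 TPM with Mdivi-1 and 1529 TPM with vehicle, and Hba-a1 1263 TPM with Mdivi-1 and 1205 TPM with vehicle, so that each was higher with Mdivi-1. Hbb-bt had 604.7 TPM with Mdivi-1 and 651.2 TPM with vehicle, Car2 137.8 TPM with Mdivi-1 and 162.9 TPM with vehicle, and Aqp1 63.5 TPM with Mdivi-1 and 80.2 TPM with vehicle, so that each was lower with Mdivi-1. Alas2 had 33.5 TPM with Mdivi-1 and 31.1 TPM with vehicle, and Klf1 had 24.7 TPM with Mdivi-1 and 24.3 TPM with vehicle. Car1, below that level, had 4.39 TPM with Mdivi-1 and 6.76 TPM with vehicle. In the same libraries the summed markers with Mdivi-1 were 0.555 times those with vehicle for megakaryocytes, 0.568 times for eosinophils and 0.621 times for B cells, and Ly6g had 90.2 TPM with Mdivi-1 and 186.6 TPM with vehicle. Their part in these values was not tested.

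The response in Ly6G+ cells minus that in HSCPs was below 0 for 8 of the 9 genes, all but Car1, and for 7638 of the 12338 genes tested. None of the 9 differences passed (0 of 9 by limma over 12338 genes, 4 of 9 at an unadjusted p under 0.05). No gene of the whole table passed this test either (0, or 0%, with 1398 genes at an unadjusted p under 0.05), which left 2 residual degrees of freedom and assumed that HSCP libraries vary like Ly6G+ libraries. The largest difference relative to its error was that of Hba-a2, at -0.51 with a 95% interval of -0.71 to -0.32 (limma adjusted p = 0.165). Hbb-bs differed by -0.45 (interval -0.69 to -0.21, limma adjusted p = 0.252) and Hbb-bt by -0.44 (interval -0.68 to -0.19, limma adjusted p = 0.266). For Klf1 the interval of -1.34 to 0.16 around -0.59 included 0, and for Car1 that of -1.65 to 2.89 around 0.62 was the widest of the 9.

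**Figure D4:**
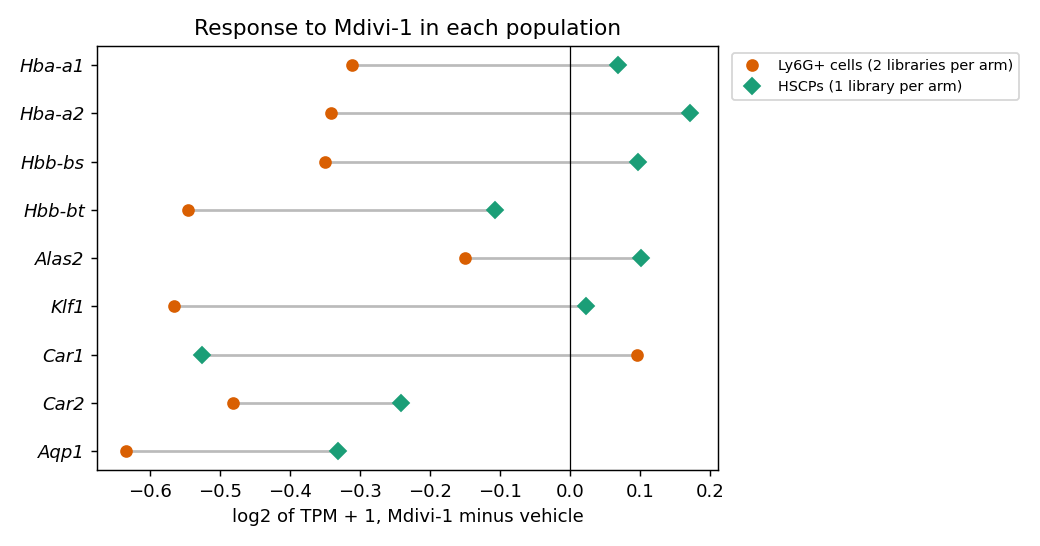
Log2 difference of TPM + 1, Mdivi-1 minus vehicle (horizontal axis), for each of the 9 genes in Ly6G+ cells (circles, 2 libraries per arm) and HSCPs (diamonds, 1 library per arm). Circles lie left of diamonds for 8 genes, by 0.51 for Hba-a2, and to the right for Car1.

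Ratios between these genes also varied between populations. Alpha globin over beta globin TPM was 1.51 and 1.66 in Ly6G+ cells given Mdivi-1, 1.47 and 1.54 in Ly6G+ cells given vehicle, and 1.38 and 1.30 in HSCPs given Mdivi-1 and vehicle. All 4 Ly6G+ libraries were thus above both HSCP libraries. The ratio of Hba-a2 to Hba-a1, which rests on the uncertain split between near-identical transcripts, was 1.68 to 1.97 in Ly6G+ cells and 1.45 and 1.35 in HSCPs. Globin over Alas2 was 139 and 134 with Mdivi-1 and 171 and 144 with vehicle in Ly6G+ cells, and 159 and 161 in HSCPs, so that the Mdivi-1 values of Ly6G+ cells lay below all others and the vehicle values lay on either side of the HSCP values. Globin over Klf1 was 336 and 365 with Mdivi-1 and 340 and 248 with vehicle in Ly6G+ cells, against 216 and 206 in HSCPs. Alas2 over Klf1 was 2.42 and 2.72 with Mdivi-1 and 1.99 and 1.72 with vehicle in Ly6G+ cells, against 1.36 and 1.28 in HSCPs.

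Other genes had profiles close to those of the globin and red cell genes over the 6 libraries. The comparison covered 8697 genes with an established symbol and a mean of at least 5 TPM. Predicted, clone-named, pseudogene and mitochondrially encoded symbols were left out. Likeness was the root mean square difference between log2(TPM + 1) profiles after centring each on its mean. It is a description that the contrast between the populations dominates. The genes nearest to Hbb-bs were Nudt21 (0.0368), Sh2b2 (0.0387) and Mvb12a (0.0398). Those nearest to Alas2 were Phtf1, Tmem129 and Numa1 (0.0341 to 0.0402), and those nearest to Klf1 were Acss1, Cldn15 and Comtd1 (0.046 to 0.086). Lmo2 was the nearest to Aqp1 (0.0734), with 78.8 and 76.9 TPM in Ly6G+ cells given Mdivi-1, 113.3 and 124.7 TPM in Ly6G+ cells given vehicle, and 219.7 and 295.7 TPM in HSCPs given Mdivi-1 and vehicle. Mfsd2b (0.0848) and Tmem205 (0.0889) followed. Car1 had no close match: its nearest gene, Cep41, differed by 0.27.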

How the data were processed

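RNA of 6 bone marrow libraries was measured by RNA sequencing. Per the submitters' processing notes, the authors used bcl2fastq, CASAVA 1.8 and kallisto with mm10. For kallisto, the version, transcript set and strand setting are not given in the sources used. The deposited values are TPM, although the table is titled as counts: they hold decimals, and the library totals are nearly equal (963243.1 to 979168.3). Of its identifiers, 27458 matched a symbol in GENCODE M21 and 1529 did not. TPM were tested as log2(TPM + 1) with limma 3.58.1 (R 4.3.3; trended, robust prior) after a filter that kept genes reaching 1 TPM in 2 or more libraries of the comparison, and p-values were adjusted by Benjamini-Hochberg at 0.05. This scale understates changes of low genes. The Ly6G+ test used 4 libraries (2 residual degrees of freedom) and the test between populations all 6 (3 residual degrees of freedom). An exact permutation test of 2 against 2 libraries cannot go below a two-sided p of 0.333 and was not used. The members and the 15 gene lists, of 202 genes, were chosen with earlier results of these data known, and no list is independent evidence. Named genes were, per list and comparison, up to 4 past the test by size of change and the 2 with the highest mean that did not pass, and not all of these are printed; other names are marked as chosen after their values were seen. Alternatives were other pseudocounts, no filter, other scalings, a replicate block and leaving out each library.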

Additional observations from a re-analysis of the deposited data

How the results depend on the processing

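The count of all genes called in Ly6G+ cells, 789 in the test as reported, was 218 with no filter on low values, 325 with a replicate block and 22 to 279 when 1 library was left out. The count of the 9 genes that fell, 5, was 3 with no filter, 2 (Hbb-bt and Aqp1) with the block and 0 to 2 with 1 library left out. Over the other erythroid lists, 7 falls became 1 with no filter, 2 with the block and 0 to 1 with 1 library left out, and 5 rises became 1, 2 and 0 to 1. A fit with 1 library left out assumes that the lone library varies like the others. The labels do not say whether the replicate numbers pair the libraries. Deviations of same-numbered Ly6G+ libraries from their group means had a correlation of -0.0306 over 11775 genes. This value shows no shared deviation, but 1 correlation with 2 libraries per group cannot exclude a pairing. The block also costs a degree of freedom. The difference between the responses gave 0 genes as reported, 1 with a pseudocount of 0.1, 6 with a pseudocount of 5 and 0 to 2 with 1 library left out. In HSCPs 74 genes passed the fold, and 403 with no filter.

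Changes of sign were few and of uncalled values. For Mdivi-1 against vehicle in Ly6G+ cells, Car1 was -0.0022 with a pseudocount of 5 and -0.65 (without vehicle replicate 2) to 0.84 with 1 library left out, and Dnm1l was -0.041 to 0.050 with 1 library left out. The difference of responses for Car1 was -0.12 (without vehicle replicate 2) to 1.36. The cause was not tested. The counts for Ly6G+ cells against HSCPs stayed within 1.5 times under every alternative run, with 8 or 9 of the 9 genes lower. Depth is unknown, which limits what can be said of Car1 at 0.769 to 6.76 TPM.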

Other observations

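Mpp1, a membrane skeleton protein of red cells and leukocytes, had 109.8 TPM in HSCPs given Mdivi-1 and 513.9 TPM in HSCPs given vehicle, a log2 ratio of -2.22. It was the only 1 of 62 other erythroid genes with a mean of at least 10 TPM in HSCPs whose ratio reached a size of 1, and with 1 library per treatment it has no replicate check. In Ly6G+ cells Mpp1 had 161.2 and 158.2 TPM with Mdivi-1, against 173.3 and 136.0 TPM with vehicle. Gfi1b, a transcriptional repressor that acts in the red cell and megakaryocyte lineages, had 4.79 and 7.07 TPM in Ly6G+ cells given Mdivi-1. It had 6.92 and 23.0 TPM in those given vehicle, the widest gap between replicates among the transcription factors printed here. Both genes were chosen after their values were seen.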
